A study of Mus musculus with 6 samples.

Results

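The 10 genes described here are the cell's own detectors of RNA and DNA in the cytosol, with the adaptors and enzymes that act directly beside them: Ddx58, Ifih1, Dhx58, Mavs, Eif2ak2, Adar, Zbp1, Tmem173, Mb21d1 and Trex1. They were chosen by name and function from a table of 26384 gene entries. The rule used no measured value, but it was set with earlier results of these data known. All 10 were found, 9 under their symbols and Mb21d1, the gene of cGAS, under the older name E330016A19Rik, which RefSeq lists as a synonym. Trex1 stood in an entry shared with Atrip and Eif2ak2 in an entry shared with Gm6548, so these values belong to the pairs.

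Sensors of this kind separate foreign or misplaced nucleic acids from the cell's own. RIG-I and MDA5 bind viral or aberrant RNA and signal through MAVS on the mitochondrion, while cGAS binds DNA and makes a cyclic dinucleotide that switches on STING. Both routes end in kinases and transcription factors that turn on type I interferon, and interferon in turn raises the transcription of many of the sensors. PKR and ZBP1 lead instead to a stop of translation and to cell death, and ADAR and TREX1 keep self RNA and self DNA from being detected.

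MLL-AF9 cells are mouse bone marrow c-Kit+ progenitors that were transduced with the leukemia fusion gene MLL-AF9 together with GFP, and passaged through mice. They were injected into C57BL/6J recipients that had not been irradiated, so each recipient kept its own marrow. Tumor-bearing mice received FF-10501-01, an inhibitor of IMPDH in guanine nucleotide synthesis, at 160 mg/kg on 2 consecutive days, or vehicle, and GFP+ cells were sorted from the marrow 48 hours after the first dose. The groups were FF-10501-01 (3 libraries) and vehicle (3 libraries), given by the study as biological replicates, and both carried the fusion gene. The study's RNA-Seq methods give another schedule of treatment and harvest than the sample labels followed here. No uninfected or fusion-free cells were compared.

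Values were FPKM, read fragments scaled to transcript length and to library size, so levels can be set beside each other between genes and, approximately, between libraries. The FPKM of a library summed to 531092 to 551958. The table kept no read totals. From steps in values up to 0.3 FPKM, depth relative to vehicle replicate 1 was 0.986 to 1.11 in FF-10501-01 libraries and 1 to 1.25 in vehicle libraries. The 6 libraries correlated with each other at Pearson r of 0.979 to 0.995 over log2 values, across genes. Replicate numbers follow the table's columns and could not be tied to single mice. The 12 listed markers of MLL-AF9 myeloid cells all reached a mean of 1 FPKM, among them Hoxa9, at 239 to 255 FPKM in FF-10501-01 libraries and 189 to 232 in vehicle libraries. By limma at an adjusted p under 0.05, 3 were higher (Hoxa9, Itgam, Spi1), 3 lower (Cd34, Kit, Pbx3) and 6 did not pass. Hoxa9, in an entry with Mir196b, was near the threshold at a limma adjusted p of 0.0465. The study, with its own test, Cuffdiff, reports that the inhibitor left Hoxa9 and Meis1 unaffected. Over all entries tested, 7.43% were called higher and 7.46% lower. Itgam had means of 213 FPKM with FF-10501-01 and 169 FPKM with vehicle, Cd34 90.7 and 132 FPKM, and Kit 35.5 and 42.7 FPKM. RNA from more or fewer cells of a type cannot be told apart from more or less RNA per cell in these sorted populations.

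The sensors were higher in FF-10501-01 than in vehicle MLL-AF9 cells or did not differ detectably, and none was lower. Zbp1 stood out, with a mean of 2.11 times its vehicle level. RIG-I (Ddx58) and LGP2 (Dhx58) followed at 1.36 and 1.32 times, and STING (Tmem173) and the Trex1 entry at 1.17 times each. MDA5 (Ifih1) and Adar showed smaller differences that narrowly missed the threshold, and the Eif2ak2 entry, Mavs and cGAS (Mb21d1) did not pass. In all, 5 of 10 sensors passed a limma test at an adjusted p under 0.05 as higher and 0 as lower, where 7.43% of the 11004 entries tested were called higher and 7.46% lower. Before adjustment 7 of 10 had a p under 0.05, all of them higher, where 15.1% of all entries tested had such a p and were higher and 17.7% lower.

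The median log2 difference of the sensors was 0.20, against -0.013 over all entries tested. The difference was above 0 for 10 of 10 sensors and for 46.6% of all entries. In 8 of 10 sensors every FF-10501-01 library lay above every vehicle library, where 17.6% of all entries tested did so, and 21.2% did so in the opposite direction. Over all entries the calls were 818 higher and 821 lower, 49.9% of them higher. With FPKM rescaled to TPM this split was 1008 higher and 667 lower, 60.2% higher, and the sensor count stayed at 5.

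The calls rested on a full set of 3 against 3 libraries. Leaving out FF-10501-01 replicate 1, 2 or 3 left 1, 1 and 0 sensors called higher, and leaving out vehicle replicate 1, 2 or 3 left 2, 4 and 2. Over all 11004 entries tested, 818 with every library, the same fits called 568, 370 and 147 and then 239, 884 and 372 higher. Without the filter on low values, where 17293 entries were tested, 0 sensors were called, and 337 of all entries were called higher.

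**Figure D1:**
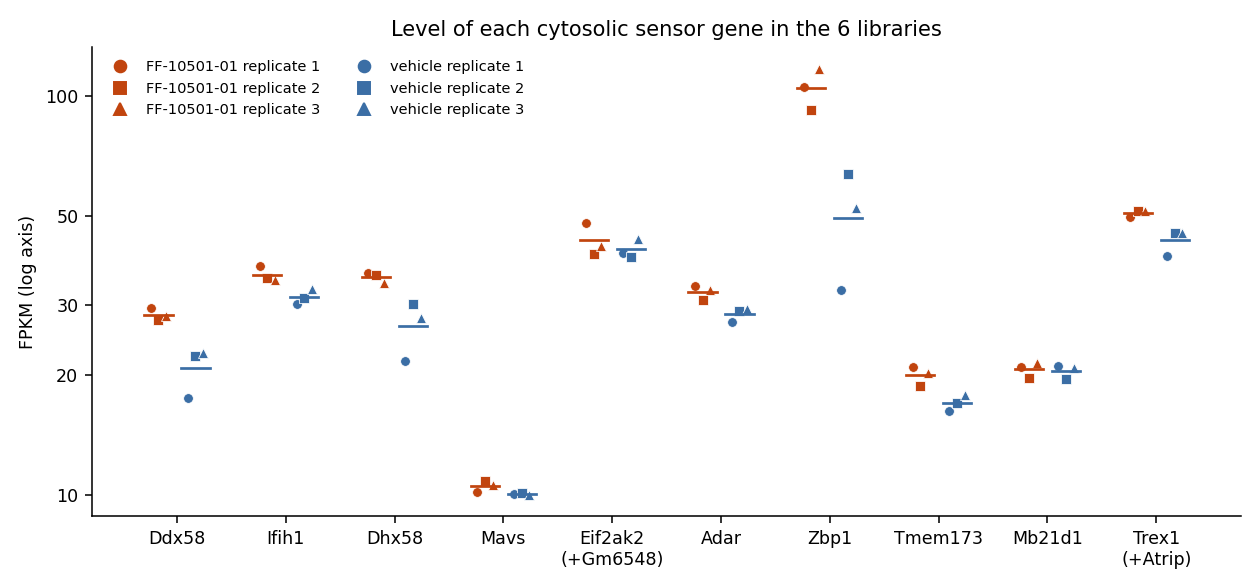
FPKM of each sensor in each library (points, with a shape for each replicate number; FF-10501-01 left in red, vehicle right in blue; bars at the group mean), on a log axis. The 3 FF-10501-01 points lie above the 3 vehicle points for 8 genes and mix with them for the Eif2ak2 entry and Mb21d1.

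The RNA sensors are shown with their start regions because interferon acts on genes through the interferon-stimulated response element (ISRE). The core searched was GAAA, any 2 bases and GAAA again, on either strand of a window from 250 bases before to 50 bases after each RefSeq transcription start (GRCm38.p6). RefSeq windows were matched for 7 of 10 sensors, with 10 windows in all; Zbp1, Dhx58 and Tmem173 had none and were not searched. The core was present in 3 of these 7 genes, Ddx58, Ifih1 and Eif2ak2, against 3.99% of 27025 genes with a window. In the sequences below, 5′ to 3′ on the gene's own strand, capitals mark the core. Each match lay just after the start, at bases +3 to +12 in Ddx58, +33 to +42 in Ifih1 and +19 to +28 in Eif2ak2. The Ddx58 core is read on the opposite strand and therefore appears as its reverse complement.
Ddx58, chr4:40239776-40240075, minus strand: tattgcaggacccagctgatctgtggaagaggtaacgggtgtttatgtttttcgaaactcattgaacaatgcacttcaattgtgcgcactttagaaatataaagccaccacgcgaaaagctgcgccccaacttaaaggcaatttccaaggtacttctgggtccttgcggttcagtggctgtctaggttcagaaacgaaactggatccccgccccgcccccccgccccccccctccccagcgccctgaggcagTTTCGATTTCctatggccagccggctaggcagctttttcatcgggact
Ifih1, chr2:62646206-62646505, minus strand: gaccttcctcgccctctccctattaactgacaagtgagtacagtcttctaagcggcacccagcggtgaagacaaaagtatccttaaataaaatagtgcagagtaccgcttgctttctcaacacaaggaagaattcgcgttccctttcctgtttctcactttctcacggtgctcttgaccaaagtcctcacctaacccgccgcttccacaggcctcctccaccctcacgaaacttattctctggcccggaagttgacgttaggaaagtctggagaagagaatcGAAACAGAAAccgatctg
Eif2ak2, chr17:78882523-78882822, minus strand: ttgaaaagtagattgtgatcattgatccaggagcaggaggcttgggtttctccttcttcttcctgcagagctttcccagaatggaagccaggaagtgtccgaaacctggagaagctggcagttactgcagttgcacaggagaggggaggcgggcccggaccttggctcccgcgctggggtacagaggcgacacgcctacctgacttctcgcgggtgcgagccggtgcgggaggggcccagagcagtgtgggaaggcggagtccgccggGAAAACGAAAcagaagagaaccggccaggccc
A second element, the gamma-activated site TTCNNNGAA, was present in the windows of Eif2ak2 and Adar, 2 of 7 genes, against 9.55% of all genes with a window. The windows of Mavs, Mb21d1 and Trex1 held neither run of letters. Only exact letters were counted, so near matches in any window, those of Adar included, were missed. A match of letters is a description of the sequence and says nothing of binding in these cells.

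Ddx58 encodes RIG-I, the helicase that recognizes short double-stranded RNA with a 5′ triphosphate, and lies on chromosome 4 at 40203773-40239828 (GRCm38, minus strand). It was at 29.5, 27.4 and 28.1 FPKM in FF-10501-01 libraries, against 17.5, 22.3 and 22.7 FPKM in vehicle libraries. The groups did not overlap, the FF-10501-01 libraries lay close together, and vehicle replicate 1 was the lowest. The means were 28.3 ± 1.05 FPKM with FF-10501-01 and 20.8 ± 2.88 FPKM with vehicle (SD, n = 3 each). On the log2(FPKM + 1) scale the difference was 0.43 (SE 0.092, 95% interval 0.22 to 0.64, limma adjusted p = 0.0222). The call was lost without FF-10501-01 replicate 1, 2 or 3, at adjusted p of 0.0554, 0.0517 and 0.0790.

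Dhx58 encodes LGP2, the RIG-I-like receptor without the signaling domains, which modulates RIG-I and MDA5. Its gene lies on chromosome 11 at 100694884-100704271 (minus strand), with exons that overlap those of the antisense gene Dhx58os. It was at 35.9, 35.6 and 34.0 FPKM in FF-10501-01 libraries, against 21.7, 30.2 and 27.7 FPKM in vehicle libraries. Here too the groups did not overlap, and vehicle replicate 1 was set apart below the others. The difference was 0.40 on the log2(FPKM + 1) scale (SE 0.105, 95% interval 0.17 to 0.64, limma adjusted p = 0.0377). It remained a call only without vehicle replicate 2. Without vehicle replicate 1 the log2 difference was 0.27 and the adjusted p 0.0513, and with each of the other 4 libraries left out the adjusted p was between 0.0720 and 0.101.

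Ifih1 encodes MDA5, which assembles along long double-stranded RNA, and lies on chromosome 2 at 62595798-62646255 (minus strand). It was at 37.6, 34.9 and 34.5 FPKM in FF-10501-01 libraries, against 30.1, 31.2 and 32.9 FPKM in vehicle libraries. All FF-10501-01 libraries lay above all vehicle libraries, but by a narrow margin. The log2 difference of 0.18 (SE 0.054, 95% interval 0.056 to 0.30) did not pass at a limma adjusted p of 0.0567, and did pass with median-of-ratios scaling at 0.0486. A match to the ISRE core was thus present in the printed windows of Ddx58, which passed, and of Ifih1 and Eif2ak2, which did not.

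Mavs, the adaptor on the mitochondrial outer membrane that both RIG-I and MDA5 use, was the least abundant of the 10 genes. Its gene lies on chromosome 2 at 131234063-131248025 (plus strand). It was at 10.2, 10.9 and 10.6 FPKM in FF-10501-01 libraries, against 10.1, 10.2 and 10.03 FPKM in vehicle libraries. The groups were separate by a small gap, with a log2 difference of 0.063 (SE 0.054, 95% interval -0.060 to 0.19, limma adjusted p = 0.442).

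Around these receptors, a list of 16 regulators of the RIG-I-like receptors was tested in full, with 0 higher, 3 lower and 13 not passed, and a median log2 difference of 0.021. The 3 that were lower had small differences. Beside the counts of this and the later lists, 7.43% of all entries tested were called higher and 7.46% lower. Tomm70a, a mitochondrial import receptor that also docks signaling proteins to MAVS, had 54.7 ± 1.68 FPKM with FF-10501-01 and 62.1 ± 1.77 FPKM with vehicle (log2 difference -0.18, limma adjusted p = 0.0311). Zcchc3, a co-sensor of nucleic acids, had a log2 difference of -0.31 (adjusted p = 0.0393), and Zc3hav1, the antiviral zinc-finger protein ZAP, one of -0.15 (adjusted p = 0.0404). Tomm70a and Zc3hav1 lost the call with each of the 6 libraries left out in turn, at adjusted p of up to 0.107 and 0.127, and Zcchc3 kept it only without vehicle replicate 2. Pcbp2, in an entry with Prr13 and known to mark MAVS for degradation, was the most abundant gene that did not pass (log2 difference 0.029, adjusted p = 0.624).

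**Figure D2:**
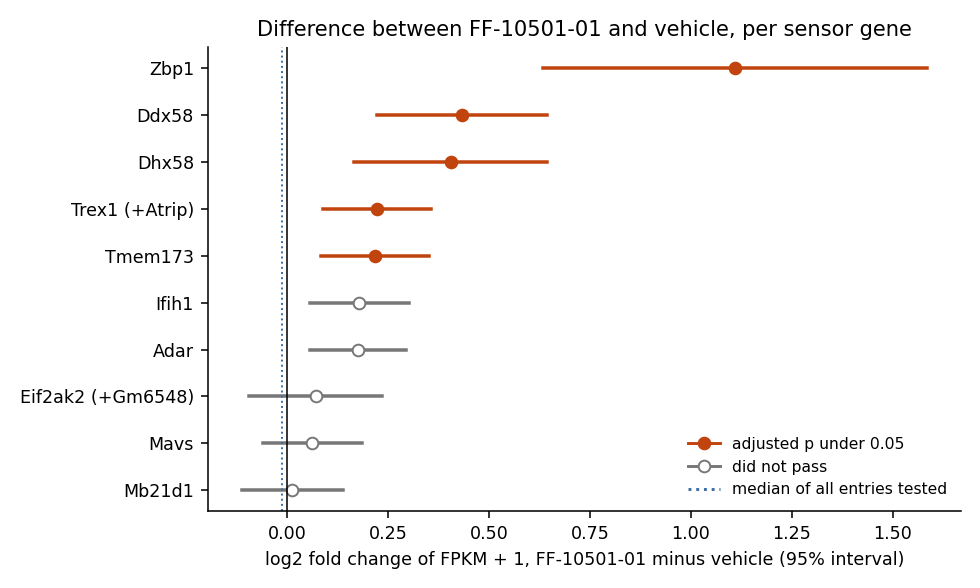
Log2 difference in log2(FPKM + 1), FF-10501-01 minus vehicle, of each sensor (points) with its 95% interval from limma (lines), and filled points where the adjusted p is under 0.05; the dotted line is the median of all entries tested. Zbp1 lies apart at 1.11 with the widest interval, and the intervals of Mavs, Eif2ak2 and Mb21d1 cross 0.

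Eif2ak2 encodes PKR, the kinase that binds double-stranded RNA and halts translation by phosphorylating eIF2alpha. It lies on chromosome 17 at 78852564-78882573 (minus strand). The entry was at 48.1, 40.3 and 42.1 FPKM in FF-10501-01 libraries, against 40.4, 39.5 and 43.9 FPKM in vehicle libraries. The groups overlapped, and FF-10501-01 replicate 1 was the highest library. The log2 difference was 0.071 (SE 0.072, 95% interval -0.094 to 0.24, limma adjusted p = 0.523) and -0.0030 without that library. The entry was merged with Gm6548, a processed pseudogene next to the 3′ end of Eif2ak2 on the same strand that is 96.7% identical to Eef1a1 over 1166 aligned bases. Eef1a1, a translation elongation factor, was itself at 4021 ± 122 FPKM with FF-10501-01 and 4491 ± 65.9 FPKM with vehicle. The share of the entry's value that comes from the pseudogene was not tested, so the level of PKR itself is uncertain.

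Among 12 genes of the eIF2alpha kinases, their partners and phosphatase subunits, 1 was higher, 1 lower and 10 did not pass, with a median log2 difference of -0.019. Nck1, an adaptor that assists the phosphatase and shares its entry with Il20rb, had a log2 difference of 0.39 (limma adjusted p = 0.0354). Eif2ak4, the kinase GCN2 that senses uncharged tRNA, had 6.19 ± 0.226 FPKM with FF-10501-01 and 7.44 ± 0.251 FPKM with vehicle, a log2 difference of -0.23 (adjusted p = 0.0427). Eif2ak4 lost the call with each library left out in turn (adjusted p 0.0560 to 0.121). The Nck1 entry lost it without FF-10501-01 replicate 2 or 3 (0.0912 and 0.125) and without vehicle replicate 1 (0.0915). Atf4, the transcription factor translated when eIF2alpha is phosphorylated, was the most abundant gene not passed, with a log2 difference of -0.10 (adjusted p = 0.479).

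Adar encodes the enzyme that turns adenosine into inosine in double-stranded RNA, an edit that hides self RNA from MDA5 and PKR. It lies on chromosome 3 at 89715022-89753446 (plus strand). It was at 33.5, 30.8 and 32.7 FPKM in FF-10501-01 libraries, against 27.2, 29.0 and 29.3 FPKM in vehicle libraries. The groups did not overlap. The log2 difference was 0.18 (SE 0.052, 95% interval 0.056 to 0.29) at a limma adjusted p of 0.0557, which did not pass. It passed at 0.0491 with a filter at a mean of 5 FPKM and at 0.0497 with median-of-ratios scaling.

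Zbp1 binds left-handed Z-form nucleic acid through the same kind of domain that the long form of ADAR carries, and engages RIPK3 to start necroptosis. Its gene lies on chromosome 2 at 173206612-173218923 (minus strand). It was at 105, 91.9 and 117 FPKM in FF-10501-01 libraries, against 32.6, 63.6 and 52.4 FPKM in vehicle libraries. The lowest FF-10501-01 library was well above the highest vehicle library, and the vehicle libraries were widely spread. The means were 105 ± 12.5 FPKM with FF-10501-01 and 49.5 ± 15.7 FPKM with vehicle (SD, n = 3 each). The difference was 1.11 on the log2(FPKM + 1) scale (SE 0.208, 95% interval 0.63 to 1.58, limma adjusted p = 0.0168). It was lost without FF-10501-01 replicate 3 (adjusted p = 0.0713) and kept with each of the other 5 libraries left out.

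The 8 genes listed as ZBP1 partners in cell death did not follow it past the threshold. All 8 were tested, 0 were called by limma in either direction, and the median log2 difference was 0.056. Before adjustment 4 had a limma p under 0.05, with Ripk1, Cflar and Tnfaip3 higher and Ripk3 lower. Over all entries tested, 15.1% had such a p and were higher and 17.7% lower. Ripk3, the kinase that ZBP1 engages, was at 24.4 ± 1.04 FPKM with FF-10501-01 and 27.1 ± 0.629 FPKM with vehicle, a log2 difference of -0.15 (adjusted p = 0.0769). Ripk1, in an entry with Nqo2, had one of 0.13 (adjusted p = 0.0770). Casp8, the protease that restrains necroptosis, was the most abundant member of the list, with a log2 difference of 0.067 (adjusted p = 0.443).

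Mb21d1 encodes cGAS, the enzyme that detects double-stranded DNA, and lies on chromosome 9 at 78430526-78443237 (minus strand). It was at 20.97, 19.6 and 21.5 FPKM in FF-10501-01 libraries, against 21.04, 19.6 and 20.8 FPKM in vehicle libraries. The groups overlapped almost completely. The log2 difference was 0.014 (SE 0.055, 95% interval -0.11 to 0.14, limma adjusted p = 0.884). Its sign turned without FF-10501-01 replicate 3 (-0.012) and without vehicle replicate 2 (-0.016).

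Tmem173 encodes STING, the membrane protein that cGAS's product activates, and lies on chromosome 18 at 35733679-35740554 (minus strand). It was at 20.9, 18.8 and 20.2 FPKM in FF-10501-01 libraries, against 16.3, 17.04 and 17.8 FPKM in vehicle libraries. The groups did not overlap, and the means were 19.98 ± 1.06 FPKM with FF-10501-01 and 17.1 ± 0.748 FPKM with vehicle (SD, n = 3 each). The log2 difference was 0.22 (SE 0.058, 95% interval 0.083 to 0.35, limma adjusted p = 0.0422). This was the least stable of the 5 calls, since it was lost with each of the 6 libraries left out in turn, at adjusted p between 0.0564 without FF-10501-01 replicate 2 and 0.128 without FF-10501-01 replicate 3.

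Trex1 encodes the exonuclease that degrades cytosolic DNA before cGAS meets it. It lies on chromosome 9 at 109057933-109059734 (minus strand), inside Atrip at 109057933-109074124 on the same strand, with overlapping exons. Atrip encodes the partner of the checkpoint kinase ATR, and the share of each gene in the entry is unknown. The entry was at 49.7, 51.6 and 51.4 FPKM in FF-10501-01 libraries, against 39.8, 45.4 and 45.4 FPKM in vehicle libraries. The groups did not overlap, and the FF-10501-01 libraries spread less than the vehicle libraries. The log2 difference was 0.22 (SE 0.058, 95% interval 0.089 to 0.36, limma adjusted p = 0.0394). Without vehicle replicate 2 the call held, and with each of the other 5 libraries left out it was lost, at adjusted p between 0.0609 and 0.120.

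Of 18 listed regulators of STING and cofactors of DNA sensing, 14 were tested, with 1 higher, 1 lower and 12 not passed, and a median log2 difference of 0.00020. Trim56, a ubiquitin ligase reported to act on STING and cGAS, had a log2 difference of 0.21 (limma adjusted p = 0.0414). Hmgb1, an abundant chromatin protein that bends DNA, was at 285 ± 9.05 FPKM with FF-10501-01 and 331 ± 8.40 FPKM with vehicle, a log2 difference of -0.22 (adjusted p = 0.0158). Trim56 was not called with any 1 library left out (adjusted p 0.0654 to 0.127), and Hmgb1 was lost without FF-10501-01 replicate 3 (0.0649) or vehicle replicate 1 (0.0577). Rnf26, a ubiquitin ligase that acts on STING, and Slc19a1, a carrier that imports cyclic dinucleotides, missed the threshold at log2 differences of 0.23 and -0.22 (adjusted p = 0.0501 and 0.0556). Banf1, which coats DNA and competes with cGAS, had a log2 difference of 0.032 (adjusted p = 0.744).

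Of 16 listed enzymes that clear self nucleic acids, 13 were tested, with 2 higher, 2 lower and 9 not passed, and a median log2 difference of -0.011. Samhd1, which breaks down deoxynucleotide triphosphates and is itself activated by a guanine nucleotide, was at 67.0, 59.6 and 72.1 FPKM in FF-10501-01 libraries, against 37.3, 46.1 and 43.4 FPKM in vehicle libraries. Its groups were well apart, with a log2 difference of 0.64 (SE 0.090, limma adjusted p = 0.0093), and the call held with each library left out in turn. Dnase2a, the lysosomal DNA nuclease, was at 58.3 ± 0.811 FPKM with FF-10501-01 and 69.6 ± 2.60 FPKM with vehicle, a log2 difference of -0.25 (adjusted p = 0.0139), lost without FF-10501-01 replicate 3 (0.0579). Apex1, a base-excision repair nuclease, had a log2 difference of -0.28 (adjusted p = 0.0397), and Mus81, a structure-specific nuclease, one of 0.20 (adjusted p = 0.0494). Apex1 was lost with each library left out (0.0511 to 0.134), and Mus81 was kept only without vehicle replicate 2. Rnaseh2c, a subunit of the nuclease for RNA-DNA hybrids, had a log2 difference of -0.015 (adjusted p = 0.862).

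**Figure D3:**
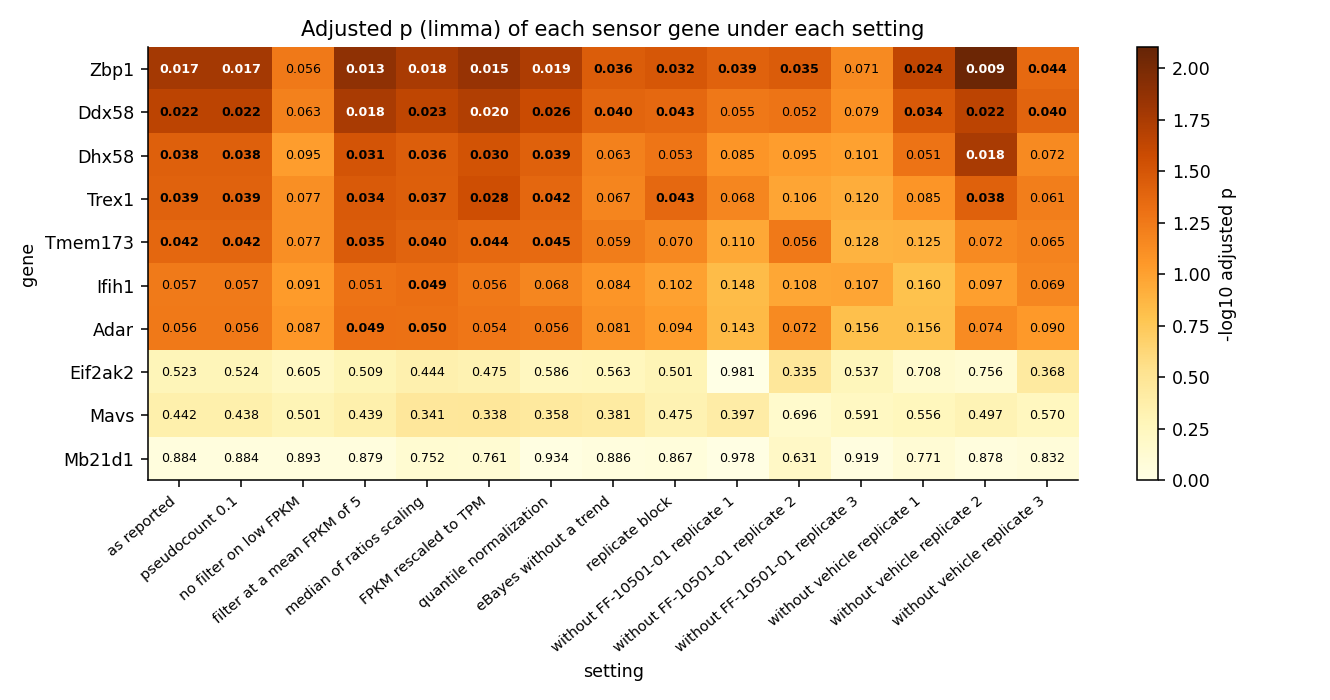
Limma adjusted p for FF-10501-01 against vehicle of each sensor (rows) as reported and under each of the 14 alternative settings (columns), printed in each cell, in bold where it is under 0.05, and shown as color on a −log10 scale. Zbp1 is bold in most columns, while the column without FF-10501-01 replicate 3 and the column without a filter hold no bold value.

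Both routes of detection meet in a common set of kinases, adaptors and transcription factors. Of 14 such genes, all tested, 3 were higher, 0 lower and 11 did not pass, with a median log2 difference of 0.060. Irf7, the factor that amplifies interferon transcription and is itself induced by interferon, was at 126, 113 and 115 FPKM in FF-10501-01 libraries, against 52.3, 76.1 and 75.9 FPKM in vehicle libraries. Its groups were far apart, and vehicle replicate 1 was again the lowest. The log2 difference was 0.80 (SE 0.132, limma adjusted p = 0.0131), lost without FF-10501-01 replicate 3 (0.0524). Irf3, the factor that both routes activate first, was at 39.6 ± 2.26 FPKM with FF-10501-01 and 32.3 ± 2.07 FPKM with vehicle, a log2 difference of 0.28 (adjusted p = 0.0250). Tbkbp1, an adaptor of the kinase TBK1, had a log2 difference of 0.29 (adjusted p = 0.0254). Irf3 and Tbkbp1 were each lost without FF-10501-01 replicate 2 or 3 and without vehicle replicate 1 or 3, at adjusted p of 0.0530 to 0.0931. Ikbke, a kinase related to TBK1, had a log2 difference of 0.21 (adjusted p = 0.0627), and Tank, an adaptor of both kinases, one of 0.096 (adjusted p = 0.279).

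The genes of interferon itself were near the floor of the measurement. Of 20 listed ligands none reached a mean of 1 FPKM, so none was tested, and 15 were listed at 0 in all 6 libraries. Their FPKM summed to 0.0497 to 0.322 in FF-10501-01 libraries and 0.146 to 0.347 in vehicle libraries, and these ranges overlap. Ifnb1, the interferon that IRF3 turns on first, was listed at 0, 0.0773 and 0.0867 FPKM in FF-10501-01 libraries, against 0 in all 3 vehicle libraries. At these values no difference was detectable.

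Other genes that interferon induces, outside the sensor list, were higher almost throughout. Of 16 listed, all tested, 15 were higher, 0 lower and 1 did not pass, with a median log2 difference of 0.66. Ifit1 and Ifit2, of a family that binds RNA and blocks translation, had log2 differences of 0.89 (limma adjusted p = 0.0131) and 0.45 (adjusted p = 0.0112). Cxcl10, a chemokine, was the gene not passed, at 16.2, 10.4 and 18.75 FPKM in FF-10501-01 libraries against 1.96, 12.5 and 3.81 FPKM in vehicle libraries (log2 difference 1.44, adjusted p = 0.0755). The count of 15 was 7, 9 and 2 without FF-10501-01 replicate 1, 2 or 3, and 10, 16 and 11 without vehicle replicate 1, 2 or 3. Ifit2 was called with each library left out, while Ifit1 was lost without FF-10501-01 replicate 3 (0.0546). The other 6 tested lists together held 7 higher and 7 lower of 76 genes, where 7.43% of all entries tested were called higher and 7.46% lower. With 1 library left out, these 14 calls became 7, 4 and 1 without FF-10501-01 replicate 1, 2 or 3 and 3, 9 and 5 without vehicle replicate 1, 2 or 3.

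**Figure D4:**
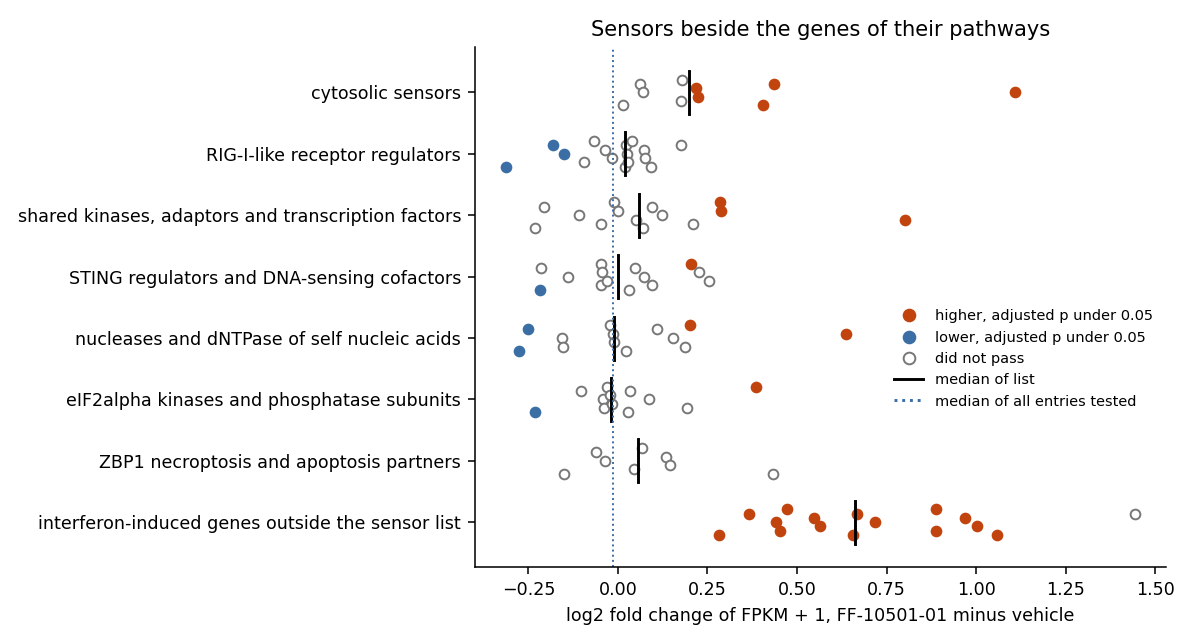
Log2 difference, FF-10501-01 minus vehicle, of every tested gene (points) of the sensors and of the 7 other lists with tested genes, with the median of each list, filled points where the adjusted p is under 0.05, and a dotted line at the median of all entries tested. The interferon-induced genes center on 0.66 and the sensors on 0.20, while the medians of the other 6 lists lie between -0.019 and 0.060.

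By level, Zbp1 was first and Mavs last in both groups. In FF-10501-01 cells the order was Zbp1, Trex1, Eif2ak2, Ifih1, Dhx58, Adar, Ddx58, Mb21d1, Tmem173 and Mavs. Of the 9 neighboring pairs, the library ranges overlapped only for Ifih1 with Dhx58 and for Mb21d1 with Tmem173. In vehicle cells Adar stood before Dhx58 and the order was otherwise the same. There the ranges overlapped for 5 neighboring pairs, namely Zbp1 with Trex1, Trex1 with Eif2ak2, Adar with Dhx58, Dhx58 with Ddx58 and Ddx58 with Mb21d1. In FF-10501-01 cells Zbp1 was above Trex1 in every library, at 91.9 to 117 FPKM against 49.7 to 51.6 FPKM.

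Within groups, Zbp1 varied most. The coefficient of variation was 2.00% to 11.9% over the FF-10501-01 libraries (median 4.44%) and 0.639% to 31.7% over the vehicle libraries (median 5.03%), both upper values being those of Zbp1. Vehicle replicate 1 held the lowest of the 6 values for 7 of 10 sensors. FF-10501-01 replicate 1 held the highest value for 6 sensors, and replicates 2 and 3 for 2 each. The sensors' FPKM summed to 362 to 392 in FF-10501-01 libraries and 257 to 308 in vehicle libraries.

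Markers listed for other cell types were examined beside these values, because a GFP+ sort can carry other marrow cells. The study also reports that the inhibitor made the leukemia cells themselves differentiate along the myeloid line in mice. Whether the marker RNA below came from carried cells or from the leukemia cells was not tested here. The markers listed for neutrophils summed to 664, 914 and 1541 FPKM in FF-10501-01 replicates 1, 2 and 3, and to 290 to 312 FPKM in vehicle libraries, with 7 of 8 tested markers called higher and Mmp8 not passed. Of the 7, Cxcr2 had means of 2.06 FPKM with FF-10501-01 and 0.541 FPKM with vehicle. It reached the filter only through the FF-10501-01 libraries, so its call is not support. S100a8 and S100a9, which encode the calprotectin subunits, made up most of the sum, at means of 476 and 283 FPKM with FF-10501-01 and 148 and 67.5 FPKM with vehicle. Ltf and Retnlg had means of 1.35 and 0.493 FPKM with FF-10501-01 and 0.206 and 0.108 FPKM with vehicle, and were not tested. Zbp1, whose call was lost without FF-10501-01 replicate 3, was at 105, 91.9 and 117 FPKM in FF-10501-01 replicates 1, 2 and 3. Of these, replicate 3 had the largest neutrophil sum and replicate 1 the smallest. Zbp1 was highest in replicate 3 and lowest in replicate 2. Whether these orders are related was not tested. Without FF-10501-01 replicate 3, 147 of all entries tested were called higher, against 818 with it. Tissue macrophage markers summed to 90.1 to 110 FPKM in FF-10501-01 libraries and 64.4 to 75.1 FPKM in vehicle libraries, nearly all of it Vcam1 and Adgre1 (listed as Emr1). Vcam1 had a mean of 66.4 FPKM with FF-10501-01 and 43.4 FPKM with vehicle, while Cd163 had 0.429 and 1.98 FPKM, and the other 7 had means of 0 to 1.07 FPKM with FF-10501-01 and 0.0097 to 0.676 FPKM with vehicle. Markers of plasmacytoid dendritic cells, a rich source of interferon, summed to 29.5 to 32.3 FPKM in FF-10501-01 libraries and 26.8 to 31.5 FPKM in vehicle libraries, nearly all of it Tcf4. Of the other 7, Siglech, Klk1 and Cd209d were listed at 0 in all 6 libraries, and the rest stayed under 1 FPKM, with Pacsin1 at means of 0.528 FPKM with FF-10501-01 and 0.12 FPKM with vehicle. The T and NK cell markers summed to 2.38 to 2.60 FPKM in FF-10501-01 libraries and 1.795 to 2.76 FPKM in vehicle libraries. B cell (mostly Cd79b) and erythroid (mostly Tfrc) marker sums were lower with FF-10501-01, at 5.71 to 6.66 and 18.9 to 23.3 FPKM, against 8.24 to 9.30 and 29.4 to 40.4 FPKM with vehicle. Conventional dendritic cell markers, mostly Flt3, summed to 7.86 to 12.9 FPKM with FF-10501-01 and 28.2 to 55.3 FPKM with vehicle. Megakaryocyte markers summed to 15.6 to 24.3 FPKM with FF-10501-01 and 9.88 to 10.9 FPKM with vehicle, mostly the merged entry of Gp1bb and Sept5 (means of 17.1 and 7.83 FPKM), while Itga2b had means of 0.616 and 1.02 FPKM and Gp6 was listed at 0 in all libraries. For marrow stroma markers, mostly Pecam1, the sums were 51.4 to 61.6 FPKM with FF-10501-01 and 49.9 to 55.1 FPKM with vehicle. The part of any of these marker sums in the sensors' differences was not tested.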

How the data were processed

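Sorted GFP+ MLL-AF9 marrow cells were profiled by RNA-Seq from strand-specific libraries. Per the submitters' processing notes the reads were trimmed with cutadapt 1.8.1, aligned to GRCm38 with TopHat2 2.1.1 and quantified with Cufflinks 2.2.1, and the authors deposited 1 table of FPKM values with 6 library columns, all used. Whether counting used strand is not given in the sources used here. Reads of genes that overlap on opposite strands may thus not be told apart. Among the sensors, exons overlapped in this way for Dhx58 with Dhx58os, Adar with Chrnb2, Mb21d1 with Gm8093, and Eif2ak2 with Gm26637 and n-R5s29. FPKM keep no read totals, and no counting interval was computed. Column names gave the group, and their numbers were not tied to mice.

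Entries with a mean of at least 1 FPKM (11004 of 26384) were tested on log2(FPKM + 1) with limma 3.58.1 (lmFit, eBayes with trend, R 4.3.3), two-sided, with treatment as the only term and Benjamini-Hochberg adjustment over all entries tested. Fold changes on this scale understate those of low genes. The script was tested on simulated data. The study's own test, Cuffdiff, needs the alignments and was not used here. Positions came from GENCODE M21 and sequence identity from blastn 2.17.0.

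All 10 sensors were named, and of each of the 8 pathway lists those ranking first by p (up to 4 tested genes), with the gene of highest mean FPKM that was tested and not called. Some genes that this rule names are not reported here. The members and lists were chosen with earlier results of these data known, so no list is independent evidence. Genes named outside this rule, among them the overlapping genes, Eef1a1, Ifnb1 and the cell type markers, are given as values beside the members. Settings tried in turn were log2(FPKM + 0.1), dropping the filter, raising it to 5 FPKM, median-of-ratios, TPM and quantile scaling, eBayes without a trend, a replicate block and leaving out each library.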

Additional observations from a re-analysis of the deposited data

How the results depend on the processing

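Across 14 alternative settings for each of the 10 sensors, 104 of 140 values kept their direction and their side of the threshold, 30 kept their direction and lost the call, 3 gained a call and 3 turned sign. The turned values were all close to 0: the Eif2ak2 entry at -0.0030 without FF-10501-01 replicate 1, and Mb21d1 at -0.012 without FF-10501-01 replicate 3 and -0.016 without vehicle replicate 2, on the log2 scale. With each library left out in turn the Eif2ak2 entry ranged over -0.0030 to 0.12 and Mb21d1 over -0.016 to 0.049. The count of 5 sensors called higher was 0 without the filter, 2 with eBayes without a trend, and 0 to 4 with 1 library left out. It was 6 with a filter at 5 FPKM and 7 with median-of-ratios scaling. Counts called lower were 0 throughout. Over all entries, 337 were higher and 244 lower without the filter, and 512 were lower without a trend. With 1 library left out, 147 to 884 were higher and 71 to 789 lower. A setting without the filter tests 17293 entries in place of 11004, and the standard errors moved as well. That of Zbp1 was 0.234 without the filter and 0.208 with it, and that of Adar 0.0468 and 0.0523. For all of these changes the cause was not tested. Same-numbered libraries did not deviate together (correlations of -0.011, -0.074 and -0.036 across genes; the other 6 pairings gave -0.11 to 0.13), so the numbers were not taken as pairs. With the replicate number as a block, 3 sensors were called higher, with Dhx58 at a limma adjusted p of 0.0528 and Tmem173 at 0.0704, the interferon-induced count was 9, and 1 of the 8 ZBP1 partners was called higher. With 3 libraries a group and no read totals, small differences such as those of Mavs and Mb21d1 could not be resolved.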
